A study of Bos taurus with 6 samples.

Results

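The genes described here are ANKS1A, XXYLT1, NEK6, AKAP2 and ATG2A, which were picked because each held a window of 3 kb with fewer MIRA-Seq reads in fibroblasts of 16-month-old than of 5-month-old heifers. All 178 windows that the files label with these 5 genes were taken, with 10 windows on either side of each gene, out of 902984 windows of the genome. The genes hold 56, 59, 29, 16 and 18 windows, in the order named above, and 34 of the 178 windows carry coding sequence by the files. The flanks hold 100 windows. Upstream and downstream, the start and end of the 5 genes and their first and last windows follow genome coordinates, not the strand of the gene. A further 3 windows inside the span of ATG2A are labelled EHD1 or LOC100336747 and were kept apart.

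The libraries were made from cultures of dermal fibroblasts, the connective tissue cells of the skin, at passage 5. The cultures came from 3 Holstein heifers, and each animal gave a culture at 5 months and a culture at 16 months of age (n = 3 per age). No culture was treated. MIRA pulls down sonicated genomic DNA with proteins that bind methylated CpG sites. The 3 animals were chosen by the study from a larger collection for their middling response to LPS, and cultured cells stand for the skin only as far as they keep its methylation. The identity of the cells cannot be checked against marker genes here, because DNA and not RNA was counted.

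DNA methylation in mammals is placed mainly on the cytosine of CpG sites. Promoters with many CpG sites are mostly free of it, while the bodies of genes often carry it, and heavily so in and around exons of transcribed genes. Read counts in MIRA-Seq rise both with methylation and with the density of CpG sites, so a level compares windows only loosely, whereas an age difference compares the same window with itself. The 5 genes share no known pathway. ANKS1A encodes a scaffold with ankyrin repeats and SAM domains that binds Eph receptors. XXYLT1 encodes a xylosyltransferase that extends the O-linked sugars of Notch. NEK6 encodes a kinase of mitosis. AKAP2 encodes an anchor for protein kinase A. ATG2A encodes a lipid transfer protein needed for the growth of the autophagosome.

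Depth was between 19.9 and 43.6 M reads counted in windows per library. The share of windows with no read was 32.4% at 5 months and 7.80% at 16 months in animal 1, 6.70% and 25.5% in animal 2, and 16.8% and 9.25% in animal 3. In animal 2 the emptier library is the 16-month library, while in animals 1 and 3 it is the 5-month library. In animals 1 and 2 the emptier library is also the one with fewer reads, at 19.9 against 43.6 M and 21.5 against 32.1 M, and in animal 3 the one with more, at 37.3 against 29.7 M. Levels below are counts per M reads (CPM) with TMM scaling, for which the reads of the tested windows are the base. Other values are plain read counts. Positive log2 fold changes are higher at 5 months. Counts are not independent molecules, since PCR copies were not removed here.

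In each gene the window with the lowest p among those higher at 5 months is called the chosen window. Its age difference is what picked the gene, so its values are a description and carry no test. The call behind the choice was an FDR below 0.1 with a fold change of at least 2, and 0.105% of all 104658 windows tested were called in this direction, with 0.0803% in the other. In all 5 chosen windows every 5-month library lay above every 16-month library, which is what the choice would give. Without the animal as a block 0 of the 5 were called, and without animal 1 or without animal 2 only 1 was. These 3 fits called 0, 14 and 68 windows among all that they tested.

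ANKS1A is labelled over 168 kb of chromosome 23, and its chosen window, chr23:8944593-8947592, lies 105 kb from the first labelled window. It is the sole chosen window that carries coding sequence, under number 11 in the files. It held 87, 181 and 76 reads in the 5-month libraries of animals 1, 2 and 3, and 38, 13 and 12 in the 16-month libraries. The level was 4.43 ± 1.40 CPM at 5 months and 0.720 ± 0.163 CPM at 16 months (SD, n = 3), a log2 fold change of 2.55 (SE 0.28). Among the 56 windows of the gene it ranked 14 by level at 5 months and 31 at 16 months. It thus went from the upper part of the gene's windows to about the middle.

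The AKAP2 window, chr8:101360987-101363986, is the first window that the files label with this gene. It is 9 kb before the first coding window. Its 5-month reads were 46, 68 and 41 in animals 1, 2 and 3, and its 16-month reads 14, 3 and 14. The level was 2.05 ± 0.245 CPM at 5 months and 0.398 ± 0.287 CPM at 16 months (SD, n = 3), with a log2 fold change of 2.45 (SE 0.49). The 16-month reads are few, and the size of this difference rests on them. AKAP2 is listed by RefSeq (ARS-UCD2.0) as another name of PALM2, whereas the other 4 genes match by symbol. In the files PALM2 is a separate label of 56 windows that ends 177 kb before the chosen window.

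The XXYLT1 window, chr1:72956301-72959300, lies 24 kb from the first of the gene's windows and carries no coding sequence. Reads were 61, 82 and 42 at 5 months and 30, 9 and 15 at 16 months. The level was 2.45 ± 0.545 against 0.641 ± 0.171 CPM (SD, n = 3), and the log2 fold change was 1.92 (SE 0.39). The window follows directly on a group of windows with the most reads of the gene, described below.

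The NEK6 window, chr11:95333785-95336784, lies 21 kb from the start of the label and 21 kb before the first coding window. Reads were 48, 94 and 39 at 5 months and 35, 5 and 18 at 16 months. The level was 2.34 ± 0.721 against 0.666 ± 0.364 CPM (SD, n = 3), and the log2 fold change was 1.79 (SE 0.41). The animals differed widely here, with log2 differences of 1.02, 2.27 and 0.63 on the log2(CPM + 0.5) scale.

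The ATG2A window, chr29:43709919-43712918, has the smallest difference of the 5. Reads were 90, 125 and 72 at 5 months and 100, 24 and 32 at 16 months. The level was 3.80 ± 0.590 against 1.73 ± 0.606 CPM (SD, n = 3), and the log2 fold change was 1.14 (SE 0.25). In animal 1 the raw count was higher at 16 months, and only the larger 16-month library turned the CPM the other way, at 4.14 against 2.39. The window carries the ATG2A label but lies next to the first coding window of EHD1, a gene of endosomal recycling labelled on the opposite strand. The first coding window of ATG2A follows 36 kb further on. Windows of the 2 genes cannot be told apart by their reads there.

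**Figure D1:**
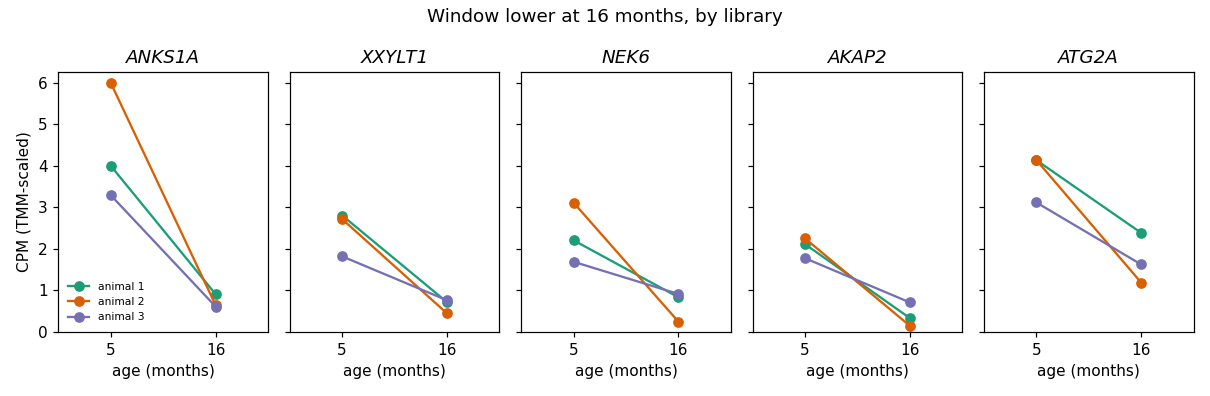
The CPM of the chosen window of each gene (TMM-scaled, linear axis from 0) is plotted by age in months, with a line joining the libraries of each animal. All 15 lines fall from 5 to 16 months, and the line of animal 2 falls most on the log2(CPM + 0.5) scale in all 5 genes.

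Of 82 labelled windows called higher at 5 months, in 73 genes, the ANKS1A window ranked 1 by fold, AKAP2 2, XXYLT1 6, NEK6 7 and ATG2A 47. Without animal 3 the AKAP2 window had the larger log2 fold change, at 3.11 against 2.60 in ANKS1A. Just inside the threshold of a 2-fold difference lay a window of LRP1, at a log2 fold change of 1.00, and just outside it a window of FBRSL1, at 0.996. In 4 of the 5 genes the chosen window passed the filter, which asked for 1 CPM or more in 3 or more of the 6 libraries, through the 5-month libraries alone. These 4 windows could be tested only for their 5-month reads. The exception was ATG2A. The highest depth at a single position was 0.130 to 0.400 of the reads of a chosen window, over the 30 values of 5 windows and 6 libraries, so that in none of them did all reads pile up at 1 place.

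In all 5 chosen windows the difference was largest in animal 2, the animal whose 16-month library had the more empty windows. The 88 windows of the 5 genes that fell under the filter differed between the libraries of an animal. In animal 2, 85 of these 88 windows were higher at 5 months, with a median log2 difference of 0.54. In animal 1, 29 of 88 were higher at 5 months, with a median of -0.15, and in animal 3, 21 of 88, with a median of -0.26. Over all 779916 windows of the genome under the filter that held a read, 17.1, 82.6 and 21.0% were higher at 5 months in animals 1, 2 and 3. The part of these library differences in the size of the age differences was not tested.

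The age difference of the rest of each gene did not pick the gene, and it was tested. The choice of the window did compare these windows, since it took the lowest p among those higher at 5 months. The other windows higher at 5 months thus have a larger p by construction, though a second call in a gene remained possible. Of the other 173 windows of the 5 genes, 85 passed the filter. In edgeR's quasi-likelihood test 0 of them were called, against 0.185% of all windows tested in either direction. The lowest adjusted p (Benjamini-Hochberg, over all windows) was 0.450. At an unadjusted p under 0.05 there were 6 windows, or 7.06%, against 7.10% of all windows. They lay in ANKS1A (1), NEK6 (3) and ATG2A (2), and 5 of them were higher at 5 months. DESeq2 called 0 of the 85 as well, but only 14 of all 104658 windows tested. Of the 85 windows, 56 leaned to 5 months and 29 to 16 months. Their median log2 fold change was 0.12, beside a median of 0.02 over all windows tested. The range was from -0.54, in a window of ANKS1A, to 0.84, in a window of ATG2A. In 17 of the 85, or 20.0%, all 3 animals were higher at 5 months, against 14.6% of all windows. All 5-month libraries lay above all 16-month libraries in 3, or 3.53%, against 2.43%. A second window was called in 0 of the 5 genes and in 7 of the 73 genes with a window called higher at 5 months, of which 67 had more than 1 window tested. The shares were not tested against each other.

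Of 28 coding windows tested beside the chosen ones, 0 were called by edgeR and 2 had an unadjusted p under 0.05, with a median log2 fold change of 0.06. Of 57 windows without coding sequence, 0 were called and 4 had such a p, with a median of 0.13. Whether the 2 kinds differed in their age difference was not tested.

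**Figure D2:**
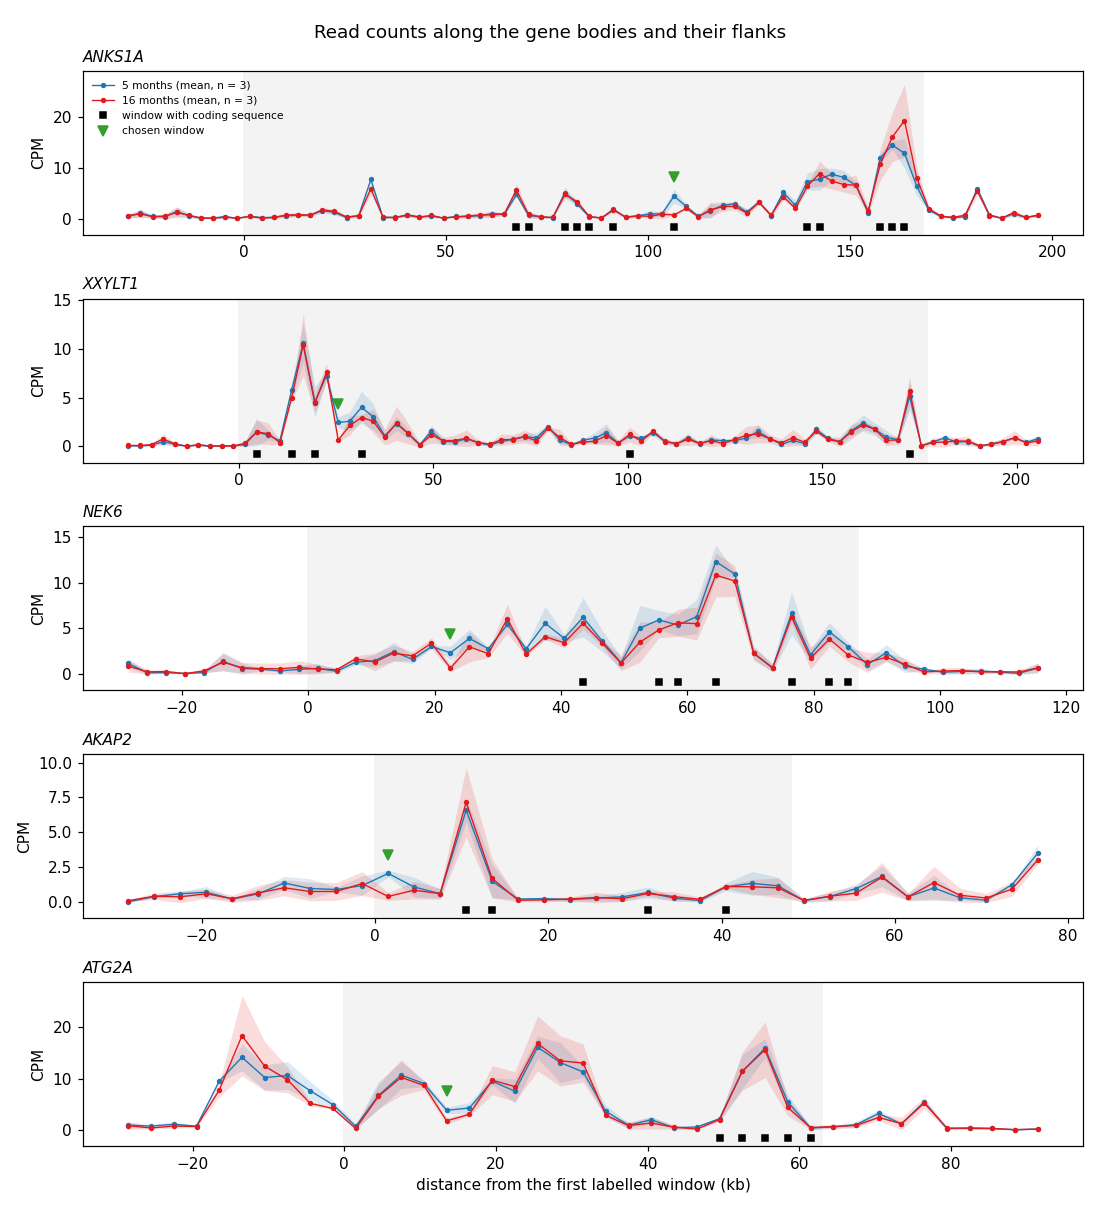
Mean CPM per window (y axes, linear, TMM-scaled) is plotted against the distance in kb from the first labelled window of each gene, for 5 months and 16 months (n = 3 each), with bands of 1 SD. The grey area is the labelled gene with the flanks of 10 windows outside it, squares mark windows with coding sequence, and the triangle marks the chosen window, where the lines part.

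No window next to a chosen one was called. On either side of the ANKS1A window the counts were 25, 13 and 27 reads at 5 months against 19, 5 and 36 at 16 months upstream, and 48, 85 and 51 against 87, 47 and 32 downstream, for animals 1, 2 and 3. The downstream neighbour had a log2 fold change of 0.26 (SE 0.28, adjusted p 0.963 by edgeR's quasi-likelihood test), and the upstream one fell under the filter. At 2 windows from the chosen one both neighbours of ANKS1A also fell under the filter. The upstream one had 0.941 CPM at 5 months and 0.449 CPM at 16 months, with log2 differences of 0.20, 0.80 and 0.71. The downstream one had 0.439 and 0.390 CPM, with log2 differences of -0.57, 0.89 and -0.25. None of these neighbours reached the 4.43 CPM of the chosen window at 5 months. Whether the age difference ends within 3 kb was not tested, since windows under the filter had no test.

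In XXYLT1 the neighbours on both sides were well covered. The upstream neighbour had 7.25 ± 0.377 CPM at 5 months and 7.60 ± 0.931 CPM at 16 months (SD, n = 3), a log2 fold change of -0.06 (SE 0.21, adjusted p 1.00). Downstream, the values were 2.58 ± 0.953 and 2.15 ± 0.976 CPM, with 0.31 (SE 0.28, adjusted p 0.938). At 2 windows away the log2 fold changes were 0.03 upstream and 0.39 downstream. The window with the age difference thus borders a window with more reads and no call.

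In NEK6 the upstream neighbour had 62, 95 and 71 reads in the 5-month and 144, 56 and 78 in the 16-month libraries, a log2 fold change of -0.15 (SE 0.23). The downstream neighbour had 67, 109 and 116 against 125, 27 and 91 reads. Its log2 fold change was 0.46 (SE 0.23), with an unadjusted p of 0.048 and an adjusted p of 0.697. The difference of this neighbour was 1.16 on the log2(CPM + 0.5) scale in animal 2 and 0.04 and 0.11 in animals 1 and 3. It was therefore mainly seen in a single animal.

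The AKAP2 window has a window without a gene label upstream, and its neighbours were thinly covered. Upstream, reads were 8, 48 and 36 at 5 months and 62, 8 and 41 at 16 months, and the log2 fold change was -0.18 (SE 0.47, adjusted p 1.00). The animals pointed in different directions there, with log2 differences of -1.19, 1.22 and -0.33. The downstream neighbour fell under the filter, with 13, 23 and 43 reads against 30, 6 and 30.

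In ATG2A both upstream neighbours are the EHD1 windows. They had 9.03 ± 0.647 and 10.7 ± 2.61 CPM at 5 months against 8.65 ± 0.852 and 10.2 ± 3.47 CPM at 16 months (SD, n = 3), with log2 fold changes of 0.06 and 0.08. The downstream neighbour had 4.25 ± 1.07 against 3.03 ± 0.364 CPM and was higher at 5 months in all 3 animals, with a log2 fold change of 0.47 (SE 0.22, unadjusted p 0.033, adjusted p 0.633). The next window had 9.46 ± 0.670 against 9.68 ± 2.82 CPM and a log2 fold change of 0.00. ATG2A and NEK6 are thus the genes where the downstream neighbour leaned the same way as the chosen window at an unadjusted p under 0.05, though neither neighbour was called.

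Summed over 9 kb, the chosen window with a neighbour on each side, the log2 difference was 1.01 ± 0.369 in ANKS1A, 0.22 ± 0.303 in XXYLT1, 0.43 ± 0.578 in NEK6, 0.80 ± 0.973 in AKAP2 and 0.33 ± 0.102 in ATG2A (SD over 3 animals, log2(CPM + 0.5) scale). The chosen windows alone gave 1.99 ± 0.453, 1.36 ± 0.449, 1.31 ± 0.858, 1.55 ± 0.594 and 0.97 ± 0.425 on that scale. The neighbours without the chosen window gave 0.20 ± 0.201, 0.01 ± 0.296, 0.16 ± 0.431, 0.10 ± 1.08 and 0.18 ± 0.0509. The neighbours alone thus averaged under 1 SD from 0 in XXYLT1, NEK6 and AKAP2, about 1 SD in ANKS1A, and above it in ATG2A.

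**Figure D3:**
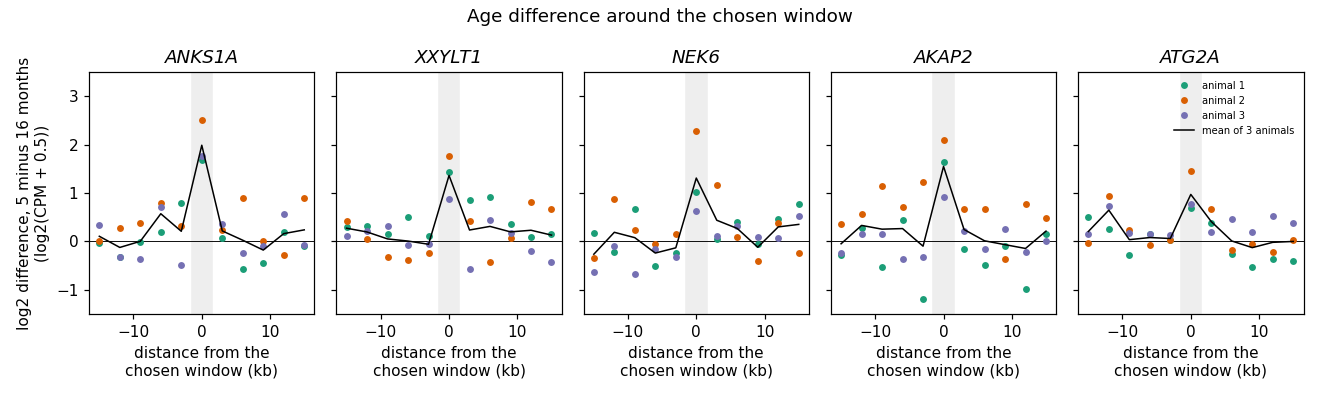
The log2 difference between 5 and 16 months (log2(CPM + 0.5) scale) is plotted against the distance in kb from the chosen window (grey band), with a point for each animal and a line for the mean of 3 animals. The mean peaks at the chosen window in all 5 genes, at 0.97 to 1.99, and is lower at each of the 5 windows on either side. A peak there is what the choice of the window favours, and it is a description only.

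Each gene had its highest level elsewhere than at the chosen window. In ANKS1A the window with the most reads, chr23:9001593-9004592, is a coding window near the end of the gene. It had 12.9 ± 2.96 CPM at 5 months and 19.3 ± 7.15 CPM at 16 months (SD, n = 3), a log2 fold change of -0.54 (SE 0.25, unadjusted p 0.030, adjusted p 0.618 by edgeR's quasi-likelihood test). It leaned the other way from the chosen window, in 2 of 3 animals, and was not called.

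The highest windows of the other 4 genes showed little age difference. They were chr1:72947301-72950300 in XXYLT1, at 10.5 ± 1.97 against 10.4 ± 3.22 CPM, and chr11:95375785-95378784 in NEK6, at 12.3 ± 1.84 against 10.8 ± 2.38 CPM. In AKAP2 it was chr8:101369987-101372986, at 6.59 ± 0.841 against 7.15 ± 2.49 CPM, and in ATG2A chr29:43721919-43724918, at 16.1 ± 2.15 against 16.9 ± 5.38 CPM (5 against 16 months, SD, n = 3). Their log2 fold changes were 0.05, 0.20, -0.08 and -0.03, each within its SE of 0.21 to 0.25 from 0. The highest window of XXYLT1 lies 9 kb before the chosen one.

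The ends of the genes were mostly low. The first labelled window had 0.449 CPM in ANKS1A, 0.595 in NEK6 and 0.470 in ATG2A (mean of 6 libraries), and in XXYLT1 it held 0 to 11 reads per library, all under the filter. In AKAP2 it is the chosen window. The last window had 7.24 CPM in ANKS1A and 2.54 CPM in NEK6, both tested and not called, and 0.0679 in XXYLT1, 1.09 in AKAP2 and 0.391 in ATG2A, all under the filter. The last window of NEK6, which carries coding sequence, was higher at 5 months in 3 of 3 animals, with a log2 fold change of 0.55 (SE 0.26, unadjusted p 0.032, adjusted p 0.631).

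Of the 100 flanking windows 18 passed the filter and 0 were called by edgeR or DESeq2. Of all 104658 windows tested edgeR called 0.185% and DESeq2 called 14. At an unadjusted p under 0.05 there was 1 flanking window, or 5.56%, against 7.10% of all windows. It lies upstream of ATG2A, at chr29:43691919-43694918, and carries coding sequence of CDC42BPG, a kinase that acts with CDC42 on the cytoskeleton. It had 9.70, 6.66 and 6.45 CPM at 5 months and 5.44, 5.40 and 4.62 CPM at 16 months in animals 1, 2 and 3, a log2 fold change of 0.55 (SE 0.21, unadjusted p 0.009, adjusted p 0.424). The groups did not overlap there. Over the 18 windows, 2, or 11.1%, had all 5-month libraries above all 16-month libraries, against 2.43% of all windows. In 14 of the 18 the log2 fold change leaned to 5 months, with a median of 0.13, and in 5, or 27.8%, all 3 animals were higher at 5 months, against 14.6%.

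Summed over the gene without the chosen window, no gene body was called. The count was 0 of 5, against 0.0111% of the 18025 labelled genes tested, and 0.621% of all genes had an unadjusted p under 0.05, as did 0 of the 5. The ANKS1A sum was 363 ± 36.4 CPM at 5 months and 367 ± 93.0 CPM at 16 months (SD, n = 3), with a log2 fold change of 0.01 (SE 0.26). The 95% interval of the fold was 0.708 to 1.44. For XXYLT1 the log2 fold change was 0.14 (SE 0.25) and the interval 0.781 to 1.55, for NEK6 0.19 (SE 0.26) and 0.803 to 1.61. For AKAP2 it was 0.00 (SE 0.27) and 0.692 to 1.45, and for ATG2A 0.09 (SE 0.26) and 0.748 to 1.51. All 5 adjusted p were 1.00 (edgeR's quasi-likelihood test, 18025 genes). The intervals leave out a 2-fold difference in either direction for each of the 5 bodies. They rest on a variance shared over all genes (167 prior degrees of freedom beside 2 residual ones), not on the spread of the 3 animals alone. The log2 differences of animals 1, 2 and 3 were 0.58, -0.26 and 0.23 in NEK6. In ATG2A they were 0.03, -0.27 and 0.50 (log2(CPM + 0.5) scale). Intervals from the 3 animals alone were not computed, so for them a 2-fold difference was not tested. Without animal 2 the NEK6 body had a log2 fold change of 0.41 with an unadjusted p of 0.022 (edgeR's quasi-likelihood test) and was not called, while 278 of 18215 genes were.

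The chosen window was a small share of the reads of its gene, except in AKAP2. In AKAP2 it held 17.0, 11.6 and 8.38% of the gene's reads at 5 months and 2.39, 1.03 and 3.56% at 16 months, in animals 1, 2 and 3. In ANKS1A the shares were 2.85, 3.75 and 2.17% against 0.578, 0.404 and 0.456%. With the chosen window included, the log2 fold changes of the whole genes were 0.05 in ANKS1A, 0.17 in XXYLT1, 0.21 in NEK6, 0.16 in AKAP2 and 0.11 in ATG2A.

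Levels along the genes were also compared between coding and other windows. This is a level and not an age difference, and the choice of genes did not use it. In reads per kb of window and M matched reads (RPKM), coding windows of ANKS1A had 1.14 ± 0.339 and its other windows 0.297 ± 0.0667 (SD, n = 6 libraries). In XXYLT1 the values were 0.629 ± 0.151 and 0.210 ± 0.0412, in NEK6 1.07 ± 0.382 and 0.531 ± 0.139, and in AKAP2 0.449 ± 0.101 and 0.0920 ± 0.0331. In ATG2A they were 1.26 ± 0.461 and 1.11 ± 0.385.

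Coding windows were higher in 6 of 6 libraries in all 5 genes (exact two-sided sign-flip permutation test, p = 0.0312 each, the smallest that 6 libraries can give, and 0.0312 adjusted over 5 genes). The 6 libraries come from 3 animals and are not independent, and over 3 animals the smallest p would be 0.25. With medians over windows in place of means, ATG2A missed the threshold (p = 0.125, exact sign-flip permutation test). Coding windows were higher in all 6 libraries in 52.3% of the 6536 genes with at least 4 coding and 4 other windows. The ratio of coding to other windows was 4.88 in AKAP2, 3.85 in ANKS1A, 3.00 in XXYLT1, 2.02 in NEK6 and 1.14 in ATG2A, beside a median of 1.42 over these genes. ATG2A is thus below this median and the other 4 are above it. Its coding windows lie in the last 15 kb of a label whose earlier windows include those beside EHD1. The density of CpG sites in the windows was not measured here.

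**Figure D4:**
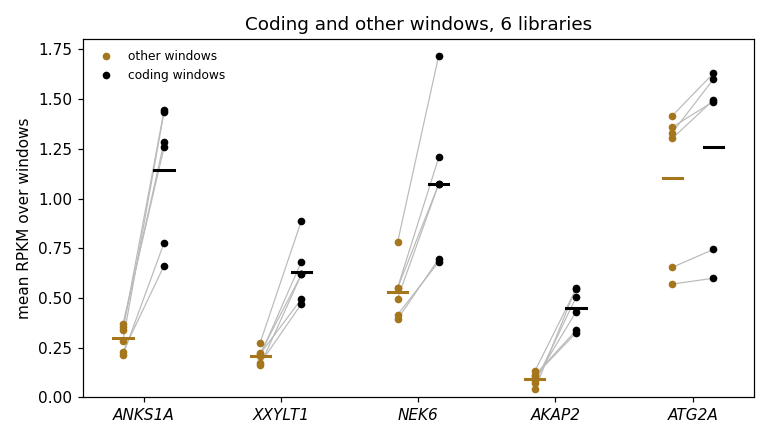
Mean RPKM over the coding and over the other windows of each gene (y axis, linear from 0) is plotted for the 6 libraries, with grey lines joining the values of a library and bars for the means. Coding windows lie above other windows in each library, from 0.154 RPKM apart on average in ATG2A to 0.847 in ANKS1A.

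Relatives and partners of the 5 genes were examined as sums over their windows. Of 84 such genes 79 are labelled in the files and 75 were tested. In edgeR's quasi-likelihood test 0 of these were called, and 0 had an unadjusted p under 0.05, against 0.0111% and 0.621% of all genes. Without animal 2, 20 of the 75 had an unadjusted p under 0.05 and 0 were called, while 278 of 18215 genes were called in all. The share of all genes with an unadjusted p under 0.05 in that fit was not taken. The 20 of 75 thus cannot be read as more or fewer than among all genes. In the fit of all animals the log2 fold changes of the relatives ran from -0.38 to 0.40. The gene with the lowest p of each list is given below, and all 5 had an adjusted p of 1.00.

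Among the ANKS, SHANK and CASKIN scaffolds and the receptors EPHA2 and EPHA8, 5 of 10 genes leaned to 5 months, with a median log2 fold change of 0.01. ANKS6, a ciliary protein, was at 0.33 (SE 0.26). Of 10 genes that add sugars to Notch or encode Notch receptors, 5 leaned to 5 months, with a median of 0.05, and GXYLT1, which adds the xylose that XXYLT1 extends, was at -0.38 (SE 0.38). Of 9 NEK kinases 2 leaned to 5 months, with a median of -0.09, and NEK11, a kinase of the DNA damage response, was at -0.26 (SE 0.26). Of 18 anchors and subunits of protein kinase A, with PALM2 listed among them, 7 leaned to 5 months, with a median of -0.03, and AKAP7 was at -0.35 (SE 0.31). Of 28 core autophagy genes 19 leaned to 5 months, with a median of 0.09, and ATG13, a subunit of the kinase complex that starts autophagy, was at 0.34 (SE 0.25). The median over all genes tested was 0.02.

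The genes whose sums over 6 libraries were most like those of the members, without the chosen window, were found by Pearson's r of log2(CPM + 0.5). They were BCAM and POLN for ANKS1A (r = 0.999 for both), RPS15 and ACSBG1 for XXYLT1 (0.996 and 0.995), and MAPKBP1 and ADARB2 for NEK6 (1.000 and 0.999). For ATG2A they were FASTK and LOC100337023 (1.000 for both), and for AKAP2 RNFT2 is given (0.981). These values are among the highest of 18025 genes over 6 points that share libraries, depth and base composition, and they are a description only.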

How the data were processed

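Genomic DNA of 6 fibroblast cultures was analysed, grouped by the age and animal that the labels give. Per the labels and methods, the authors used NextGENe 2.3.4 to align filtered reads to the build UMD 3.1 of the bovine genome, and deposited, for each library, the read counts of sequential windows of 3 kb, without normalization. The deposited files also give the highest depth of coverage of a window, a signal the authors did not scale, which was used only against the read count. Gene labels, strands and coding marks are those of the files. For PCR copies and reads with several matches, the treatment was not given in the sources used here. No sequence was read, since no genome of this build was used here.

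Windows at 1 CPM or more in 3 or more of the 6 libraries were tested in R 4.3.3 with edgeR 4.0.16 (TMM factors, quasi-likelihood test, animal as a block), with Benjamini-Hochberg adjustment over all 104658 windows. A call needed an FDR below 0.1 and a fold of at least 2. Gene sums were fitted alike. Standard errors are the log2 fold change over the root of F. The fits were also run on simulated counts, whose outcome is not reported here and backs no statement above. DESeq2 1.42.0 and limma 3.58.1 served as alternatives, and Python 3.11.15, numpy 2.4.6, pandas 2.3.3, scipy 1.17.1 and matplotlib 3.10.9 for the rest. RPKM was taken over matched reads.

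The animals gave a library at each age, and deviations from the age means correlated at 0.290, 0.544 and 0.710 within animals 1, 2 and 3. The members and gene lists were chosen with earlier results of these data known. The windows named are, in each gene, the chosen window, the 2 neighbours on each side, the first and last window, the highest window and any other called or at an unadjusted p under 0.01. Windows and genes named outside this rule (some of those at an unadjusted p under 0.05 and the genes at the threshold) were chosen after their values were seen. For likeness the 2 genes with the highest r were named, except 1 that is not reported here, and of each list of relatives the gene with the lowest p. Depth was 19.9 to 43.6 M counted reads, and the chosen windows held a median of 72 reads at 5 months and 15 at 16 months, so counting error limits them.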

Additional observations from a re-analysis of the deposited data

How the results depend on the processing

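The counts of 0 called, for the other windows, the flanks, the gene bodies and the relatives, stayed at 0 under every alternative run: edgeR's likelihood-ratio test, DESeq2, DESeq2's size factors, library size only, other filters, no replicate block and leaving out each animal, with TMM factors from all windows and no limit on the fold for windows only and, added after the data were seen, limma-trend for gene sums only. A 0 was fixed in advance where a setting called nothing anywhere. Without the block this held for all 104658 windows and 18025 genes tested. It also held for genes with library size only and without animal 1. For gene sums the other settings, with the main fit, called 1 or 2 genes anywhere, except without animal 2, where 278 of 18215 were called. Where only 1 or 2 were called, a 0 among 5 bodies or 75 relatives was close to fixed and shows little. With no filter 2 of 884574 windows were called. The unadjusted p did move without animal 2, where 20 of 75 relatives and 1 of 5 gene bodies were under 0.05, from 0 and 0. The share of all genes under 0.05 in that fit was not taken. The number of genes with higher coding windows was 5 in the main analysis and 4 with the median over windows, where ATG2A had p = 0.125 (exact sign-flip permutation test). Without any 1 animal it was 0 (lowest and highest 0), by construction, since the exact test over 4 libraries cannot give a p below 0.125. Coding windows stayed higher on average in all 5 genes there.

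The sign of gene-body log2 fold changes near 0 turned. With DESeq2 and with its size factors ANKS1A went to -0.0292 under both and AKAP2 to -0.0416 and -0.0417. With library size only they went to -0.0057 and -0.0179. Without the replicate block ANKS1A went to -0.0150. Leaving out each animal gave -0.131 to 0.167 in ANKS1A, -0.0953 to 0.222 in XXYLT1, -0.0884 to 0.413 in NEK6, -0.0771 to 0.0187 in AKAP2 and -0.118 to 0.264 in ATG2A. The cause was not tested.

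The calls of the chosen windows depend on the block and on the animals. With the pairing by animal as a replicate block 5 of 5 were called, and without it 0. Without animal 1, 1 was called, without animal 2, 1, and without animal 3, 5. DESeq2 called 2, library size only 4, a filter of 0.5 CPM 4 and no filter 0. Among all windows tested, 194 were called in the main fit and 0 without the block. Leaving out animals 1, 2 and 3 gave 14, 68 and 1278 called windows. DESeq2 called 14, library size only 99, a filter of 0.5 CPM 96 and no filter 2. The counts for the chosen windows thus also reflect how many windows each setting called anywhere. The log2 fold changes of the chosen windows ran from 0.87 to 3.11 over these settings, the highest in AKAP2 without animal 3. With TMM factors from all windows 25 of 104658 windows were called, against 194 in the main fit. The chosen windows were not taken from that fit, so their calls under it are not known here.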
